A study of Mus musculus with 4 samples.

Results

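Hox genes encode homeodomain transcription factors that mark position along the body axis. The 39 genes whose symbol is Hox, a cluster letter a to d and a number were taken by that rule from a table of 24972 genes, and 38 of the 39 are described singly here. RNA came from the lower jaw, dissected as the mandibular dental arch from mouse embryos at day 17.5. Wild-type embryos (genotype Ascl5WTWT) gave libraries 15 and 20, and embryos homozygous for an Ascl5 variant (Ascl5MutMut, called mutant here) gave libraries 18 and 14. No other allele, strain or treatment is given, and neither is what the variant does to the gene, a basic helix-loop-helix factor gene. The labels do not say whether libraries came from separate litters or pooled embryos, so p-values measure only how far these samples spread, and that spread may be technical.

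In the mouse the genes lie in 4 clusters, HoxA to HoxD, and are numbered 1 to 13 by paralogue group. The low-numbered genes are used at the front of the embryo and the high-numbered ones towards the tail, in the same order as on the chromosome. The neural crest that builds the jaw comes from a level of the head that lacks Hox expression, and the jaw is therefore called Hox-negative. Hoxa2 is the textbook case: it specifies the skeleton of the second pharyngeal arch, next to the jaw. Outside axial patterning some Hox genes act late and locally, as Hoxc13 does in the hair follicle and nail. The clusters also hold microRNAs of the miR-10 and miR-196 families, which target Hox transcripts.

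Normalized counts (counts scaled between libraries by the submitters) summed to between 22134483 and 22578580 per library. Because these totals were taken after the scaling, they do not show the read depth of the libraries. The jaw label was checked with 18 markers of mandible and tooth, all of which were above 0 in every library, with a median level of 250 normalized counts per kb of exon. None of these 18 passed the threshold for genotype (limma), but 10 were lower in both mutant libraries than in both wild-type ones, where 14% of all genes were, and 6 lower and 1 higher had an unadjusted p under 0.05, where 4.27% of all genes did. Their part in the Hox differences below was not tested. Xist, from the inactive X, stood at 38619 in library 15 (wild type) but between 5.005 and 12.7 in the remaining 3 libraries, so the 2 wild-type libraries differed in sex. In whole tissue such as this, fewer cells of a type and less RNA per cell cannot be told apart. For a single gene, the smallest p that exact permutation (two-sided) of 2 libraries per genotype can give is 0.333. Gene tests were therefore made with limma, which shares the variance estimate across genes, with Benjamini-Hochberg adjustment over all 17979 genes that had a mean of at least 1.

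The results turn on a stretch of the HoxD cluster around Hoxd8, so 4 promoters of that cluster are shown: those of Hoxd8, Hoxd9 and Hoxd4, which were among the highest Hox genes, and that of Hoxd12, which lies in the same cluster and was at 0 in every library. Each runs from 250 bases before the start of transcription to 50 after it, on the plus strand of chromosome 2 (RefSeq, GRCm38.p6). They are Hoxd8 at chr2:74704365-74704664, Hoxd9 at chr2:74697513-74697812, Hoxd4 at chr2:74721728-74722027 and Hoxd12 at chr2:74674763-74675062. The Hoxd4 window lies inside the annotated span of that gene (74711929 to 74729160). Which start the Hoxd4 reads came from is not known. Capitals mark matches, on either strand, to 3 short motifs: TGATNNAT, a site for Hox and Pbx proteins bound together; TTTATG, a site for Cdx proteins; and TATAAA, the TATA box.
Hoxd8: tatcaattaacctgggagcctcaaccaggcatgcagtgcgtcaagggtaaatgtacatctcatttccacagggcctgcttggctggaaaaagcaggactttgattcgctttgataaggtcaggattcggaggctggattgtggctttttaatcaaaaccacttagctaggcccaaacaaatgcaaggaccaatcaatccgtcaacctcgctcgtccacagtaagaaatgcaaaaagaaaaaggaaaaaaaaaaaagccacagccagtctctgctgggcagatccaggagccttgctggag
Hoxd9: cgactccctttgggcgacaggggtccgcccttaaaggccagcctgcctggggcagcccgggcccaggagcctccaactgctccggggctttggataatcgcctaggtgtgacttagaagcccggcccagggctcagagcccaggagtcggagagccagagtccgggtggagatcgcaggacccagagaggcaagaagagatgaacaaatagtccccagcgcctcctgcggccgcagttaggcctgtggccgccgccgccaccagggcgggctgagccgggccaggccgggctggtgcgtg
Hoxd4: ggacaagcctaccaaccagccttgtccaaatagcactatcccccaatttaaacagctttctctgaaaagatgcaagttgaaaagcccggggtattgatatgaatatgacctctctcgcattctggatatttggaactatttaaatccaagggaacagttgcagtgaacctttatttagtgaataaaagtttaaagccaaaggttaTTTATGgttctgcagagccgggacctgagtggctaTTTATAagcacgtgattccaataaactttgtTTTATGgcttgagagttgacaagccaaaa
Hoxd12: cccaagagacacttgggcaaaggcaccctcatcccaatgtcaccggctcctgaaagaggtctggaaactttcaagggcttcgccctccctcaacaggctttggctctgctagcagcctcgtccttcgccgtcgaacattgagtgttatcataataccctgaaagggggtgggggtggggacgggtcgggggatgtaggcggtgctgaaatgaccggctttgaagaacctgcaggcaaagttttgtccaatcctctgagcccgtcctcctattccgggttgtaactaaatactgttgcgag
The 3 expressed genes had unlike promoters. That of Hoxd9 had a GC content of 68.33% and 20 CpG dinucleotides, that of Hoxd8 46.67% and 6, and that of Hoxd4 39.67% and 4. That of Hoxd12, the gene at 0, stood between them, with 55% and 13. Only the Hoxd4 promoter of these 4 held a match, with 2 to the Cdx motif and 1 to the TATA box on the reverse strand, and none of the 3 matches overlapped another. Over the 24 promoters listed for 22 Hox genes, 16.67% held the Hox and Pbx motif, 20.83% the Cdx motif and 16.67% the TATA box. Among all 32851 promoters of the same length the shares were 8.846%, 11.85% and 13.62%. A match here is a run of letters and not a site shown to be bound.

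The microRNAs of the clusters fall into families by seed, the bases 2 to 8 that pair with a target, shown in capitals (RefSeq, GRCm38.p6). Of those shown, only miR-10b lies in the stretch that was expressed, within the span of Hoxd4, at chr2:74726074-74726096 on the plus strand. The gene of miR-10a lies in HoxB, that of miR-196b in HoxA, and those of miR-196a in HoxB and HoxC.
miR-10a-5p: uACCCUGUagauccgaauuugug
miR-10b-5p: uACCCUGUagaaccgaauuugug
miR-196a-5p: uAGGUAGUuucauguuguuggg
miR-196b-5p: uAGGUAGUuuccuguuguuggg
The miR-10 pair shares the seed ACCCUGU and the miR-196 pair the seed AGGUAGU. The rows for the 6 microRNA genes of the clusters (Mir10a, Mir10b, Mir196a-1, Mir196a-2, Mir196b and Mir615) were all at 0 in all 4 libraries. The libraries were made from polyadenylated RNA, in which mature microRNAs are not captured, so these rows do not measure them.

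Most Hox genes were at or near 0 in the jaw, and a few were not. Of the 39, 11 were listed at 0 in all 4 libraries (Hoxa6, Hoxa7, Hoxa13, Hoxb1, Hoxb5, Hoxc9, Hoxc10, Hoxc11, Hoxc12, Hoxd11 and Hoxd12), 8 were above 0 with a mean under 1 normalized count, and 20 had a mean of at least 1. Only 4 reached a mean of 20: Hoxd8, Hoxc13, Hoxd4 and Hoxd9. That is 10.3% of the Hox genes, against 58.7% of all genes in the table. The share at 0 in every library was nearer to that of other genes, 28.2% against 22.4%. Per kb of exon, the median Hox gene stood at 0.40 normalized counts and the median gene of the table at 29.8. By contrast all 6 Dlx genes, the homeobox family that patterns the jaw, had a mean of at least 20, as did 2 of 3 Msx genes and 3 of 8 Lhx genes. Most members were thus low in this whole tissue, and Hoxd8, Hoxc13, Hoxd4 and Hoxd9 stood above them. The label Hox-negative refers to the neural crest of the jaw, and the cells that held these transcripts were not identified.

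**Figure D1:**
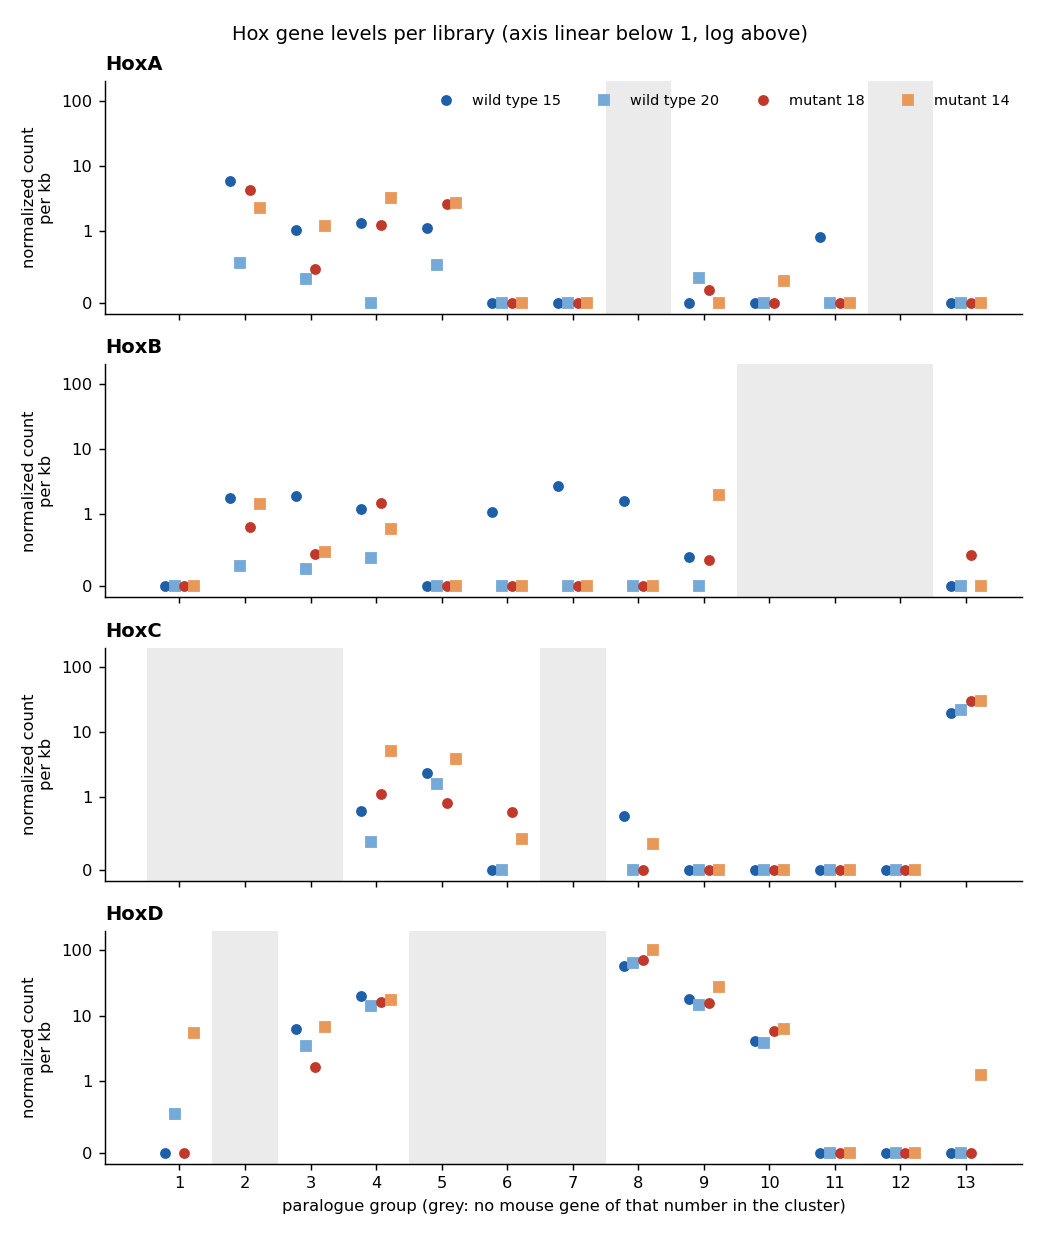
Level of 38 of the 39 Hox genes in each library, as normalized count per kb of exon, with 1 panel per cluster, genes ordered by paralogue group, and 1 marker per library. Hoxd8 stands highest, between 58.1 and 103 per kb, Hoxc13, Hoxd9 and Hoxd4 follow, and 11 genes lie at 0 in all 4 libraries.

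The HoxD cluster (chromosome 2, 74668310 to 74765142, GRCm38) held most of the signal. Per kb, its 9 genes summed to 106 and 99.5 in wild type 15 and 20 and to 109 and 167 in mutant 18 and 14, or 72.2% of the mean Hox sum. HoxC (chromosome 15, 102921103 to 103036852) held 18.1%, with sums of 23.4, 24.2, 32.8 and 40.5 in the same order. HoxA (chromosome 6) held 6.69% and HoxB (chromosome 11, 96194316 to 96368256) 2.98%. For HoxC and HoxD both mutant sums lay above both wild-type sums; these sums rest mainly on Hoxc13 and Hoxd8. HoxA was lowest in wild-type library 20, at 3.63 per kb against 15.3, 11.2 and 14.4 in libraries 15, 18 and 14. HoxB was likewise lowest there, at 0.913 against 10.7, 3.57 and 4.69.

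Levels did not fall evenly from front to tail numbers. Of the genes in paralogue groups 1 to 3, 7 of 8 had a mean of at least 1, against 9 of 15 in groups 4 to 8 and 4 of 16 in groups 9 to 13. Summed per kb, however, the front groups held 9.22% of the Hox signal, the middle groups 60.3% and the tail groups 30.5%. Many front genes were thus detected at a low level, while group 8 alone held 44.5%, group 13 15.6%, group 4 12.6% and group 9 11.7%. In each of those 4 groups 1 gene (Hoxd8, Hoxc13, Hoxd4 and Hoxd9) accounted for most of the level. Group 12 was at 0, and groups 6, 7 and 11 were each under 0.5% of the sum.

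Hoxd8, a middle-group gene of the HoxD cluster (chromosome 2, 74704615 to 74707933), was the highest Hox gene. It had 159 and 173 normalized counts in wild type 15 and 20 against 193 and 282 in mutant 18 and 14. The mutant pair was above the wild-type pair, and library 14 stood apart from the other 3. Per kb its mean was 73.6, above 59.9% of all genes with a known length. It held 44.1% of the summed Hox level per kb.

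Its neighbours formed a peak with it. Hoxd9, the next gene towards the tail end (74697727 to 74700208), had 37.9 and 31.2 normalized counts in wild type 15 and 20 against 32.9 and 58.2 in mutant 18 and 14. Hoxd4, on the front side of Hoxd8 (74711929 to 74729160), had 58.3, 41.7, 46.8 and 51.6 in the same order. In neither gene did the genotypes separate. Per kb, Hoxd9 ranged from 14.6 to 27.2 and Hoxd4 from 14.2 to 19.8, so their order did not differ beyond the spread between libraries, while Hoxd8, from 58.1 to 103, lay above both in every library. Hoxc13, on chromosome 15, ranged from 19.4 to 30.7 per kb, and its range overlapped that of Hoxd9, though within each library it was the higher of the pair.

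Further out the level was lower on both sides. Hoxd10 (74691924 to 74695105) had 7.41 and 6.86 normalized counts in wild type 15 and 20 against 10.5 and 11.1 in mutant 18 and 14, with no overlap. Hoxd3 (74711927 to 74748442), which acts in the upper vertebral column, had 25.8, 14.02, 6.70 and 28.3, and its mutant values were the lowest and the highest of the 4. Per kb, Hoxd10 (3.78 to 6.11) lay within the range of Hoxd3 (1.598 to 6.76). The limb and genital genes at the tail end were at or near 0: Hoxd11 and Hoxd12 in all libraries, and Hoxd13 in all but mutant library 14, which had 3.04. At the front end Hoxd1 was at 0, 0.999, 0 and 10.02 normalized counts. Together Hoxd3, Hoxd4, Hoxd8, Hoxd9 and Hoxd10 held 71.1% of the Hox level per kb, with sums of 106, 99.0, 109 and 160.

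**Figure D2:**
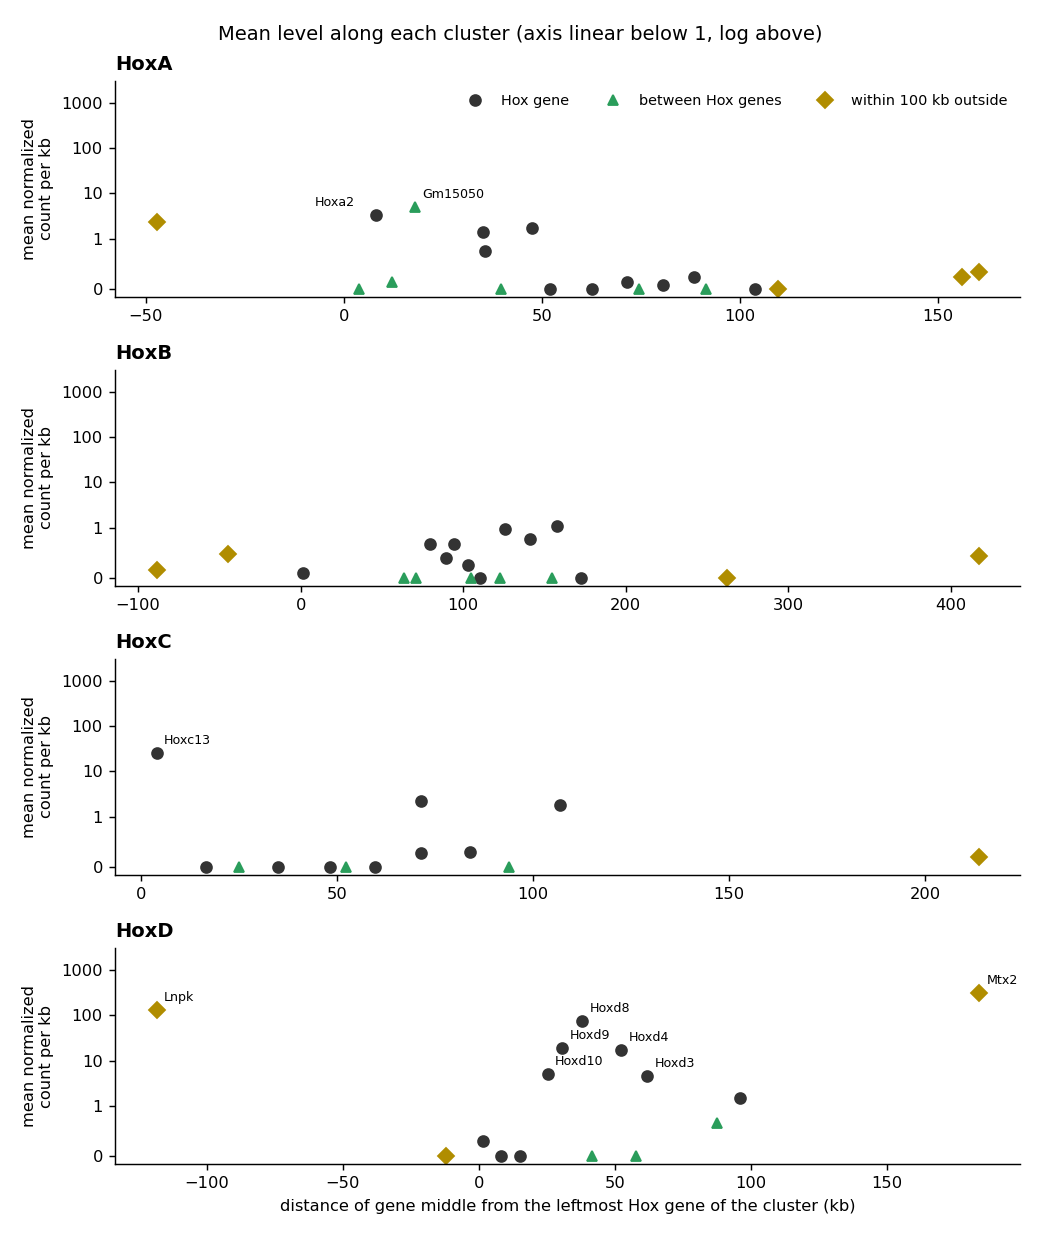
Mean level over the 4 libraries along each cluster, as normalized count per kb against the distance of the gene's middle from the leftmost Hox gene in kb, for 38 Hox genes, genes between them and genes within 100 kb outside; the level axis is linear below 1 and logarithmic above. In HoxD the level peaks at Hoxd8 (73.6 per kb) and drops to 0 at Hoxd11 and Hoxd12, while in HoxC only Hoxc13 at the edge is above 10.

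The genes outside the HoxD cluster were expressed on both sides. Lnpk, beyond the tail end, had 1181, 1148, 1261 and 1104 normalized counts in libraries 15, 20, 18 and 14, and Mtx2, beyond the front end, 943, 1199, 1165 and 1137. Between Lnpk and the cluster, the homeobox gene Evx2 was at 0 in every library. Of 17 noncoding or other genes lying between Hox genes, 6 are the microRNA genes that these libraries do not measure. Of the other 11, 8 were at 0 in all libraries, among them Hotair, Hotairm1 and Hoxd3os1. Outside HoxA, Hottip was also at 0 and Halr1 had 2.11, 3.92, 0.96 and 2.02. Of these 11, only Gm15050 in HoxA (0, 0.98, 2.89 and 7.04) and Haglr in HoxD (0, 0.99, 0 and 7.09) had a mean of at least 1, and both were highest in mutant library 14.

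Shared exons limit how exactly reads can be given to Hoxd4 and Hoxd3. Of the exon bases of Hoxd4, 52.3% lie on the same strand as exons of Hoxd3, Gm28230 or Mir10b, and of those of Hoxd3 62.4% do so with other genes. The authors' rule for such reads is not given in the sources used here, so the split between Hoxd3 and Hoxd4 is uncertain. Hoxd8, Hoxd9 and Hoxc13 share no exon base with another gene. Hoxb3 shares 52.9% of its exon bases with genes on the opposite strand, Hoxb2 27.3%, Hoxa3 25.4% and Hoxa4 15.998%, and the strand setting of the counting is not given.

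Hoxc13, which drives keratin genes of hair and nail, was the second-highest Hox gene per kb (25.6, above 48.9% of genes with a length) and the only HoxC gene with a mean above 10. It lies at the tail edge of its cluster (chromosome 15, 102921103 to 102928814), apart from the other expressed HoxC genes. It had 47.8 and 54.7 normalized counts in wild type 15 and 20 against 73.8 and 75.6 in mutant 18 and 14. The genotypes did not overlap. Its neighbours Hoxc9, Hoxc10, Hoxc11 and Hoxc12 were at 0 in all 4 libraries, and the 8 HoxC genes other than Hoxc13 summed to 3.93, 1.99, 2.83 and 9.82 per kb in libraries 15, 20, 18 and 14.

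Hair follicle markers were measured beside it, since whiskers and skin can be part of a dissected jaw. All 14 were above 0 in every library, and they summed to 3172 and 2847 normalized counts in wild type 15 and 20 against 4554 and 2777 in mutant 18 and 14. Of the 14, 11 had a higher mean log2 value in the mutant and 3 a lower one, none passing the adjusted threshold and 3 at an unadjusted p under 0.05: Krt31 and Krt35, which were higher, and Msx2, which was lower (473, 550, 286 and 305 in libraries 15, 20, 18 and 14) and is also a jaw marker. The hair keratins Krt35 (59.2, 90.5, 124.7 and 120.1) and Krt31 (15.6, 21.9, 43.8 and 31.6) had higher values in both mutant libraries, as Hoxc13 did. Krt85, also a hair keratin, overlapped between genotypes (16.65, 28.8, 47.6 and 17.3). Over the 14 markers, 3 were higher in both mutant libraries, 1 was lower and 10 overlapped. Among all genes tested, 13.4% were higher in this way and 14% lower. The inner root sheath keratin Krt71 was highest in library 18 (568, 425, 960 and 440). The part of hair follicle content in the Hoxc13 difference was not tested.

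**Figure D3:**
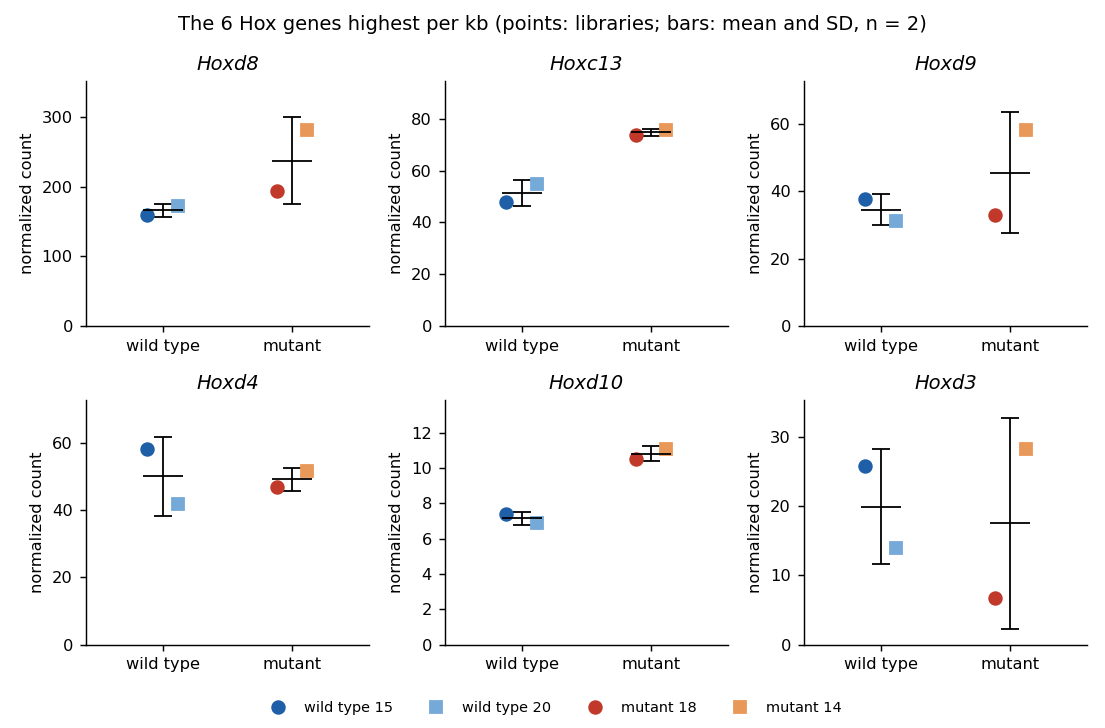
Normalized count of the 6 Hox genes highest per kb, by genotype, with 1 point per library and bars for the mean and SD (n = 2). Hoxd8, Hoxc13 and Hoxd10 have both mutant libraries above both wild-type libraries, and Hoxd9, Hoxd4 and Hoxd3 overlap.

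The genes of the front groups were low. Hoxa2, the second-arch selector, had 10.5, 0.987, 7.65 and 4.04 normalized counts in libraries 15, 20, 18 and 14, a mean of 3.26 per kb, and was above 0 in every library. Its 2 wild-type values were the highest and the lowest of the 4. Hoxa3, needed for the thymus and parathyroid, had 6.22, 1.998, 2.86 and 7.09. Hoxb2, a hindbrain and second-arch gene, had 6.17, 1.005, 2.87 and 5.06, and Hoxb3 8.08, 1.01, 1.92 and 2.04. In none of these did the genotypes separate.

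Summed, the 8 genes of groups 1 to 3 had 68.1 and 24.2 normalized counts in wild type 15 and 20 against 27.6 and 67.4 in mutant 18 and 14. Libraries 15 and 14 were thus high and 20 and 18 low, 1 of each genotype. Hoxd3 gave 25.8, 14.02, 6.70 and 28.3 of these sums in libraries 15, 20, 18 and 14, and Hoxd1 gave 10.02 in library 14. Hoxa2 was higher in library 18 (7.65) than in library 14 (4.04). Red blood cell genes were high in the same libraries: 10 erythroid markers summed to 259995 and 112378 in libraries 15 and 20 and to 108919 and 269944 in libraries 18 and 14, mostly from the globins Hba-a1 and Hba-a2. Meis1 (603, 367, 460 and 658) and Meis2 (1000, 564, 745 and 1048), which encode Hox cofactors, were also highest in libraries 15 and 14. Markers of thyroid, parathyroid and thymus, glands that lie behind the jaw, summed to 273, 178, 218 and 269, with Nkx2-1 and Pth at 0 in every library. Foxn1, which is also on the hair follicle list, gave 111.1, 64.7, 102.7 and 142.5 of those sums. The part of any of these tissues in the front-group levels was not tested.

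Genes of groups 4 to 9 outside HoxD were near the limit of detection. Hoxc5 had 7.33, 4.95, 2.86 and 12.1 normalized counts in libraries 15, 20, 18 and 14, and Hoxc4 2.09, 0.99, 2.87 and 13.1. Hoxa5, which patterns the neck and lung, had 2.10, 0.99, 4.801 and 5.02, and Hoxa4 2.08, 0, 1.92 and 5.06. Hoxb4, known for its use in blood stem cells, had 3.12, 0.994, 3.83 and 2.02, and Hoxb9 1.05, 0, 0.957 and 5.07. Hoxc4 and Hoxa5 were higher in both mutant libraries than in both wild-type ones, and the rest overlapped.

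Hoxb7 and Hoxb8 were seen in 1 library only, with 4.21 normalized counts each in wild-type library 15 and 0 in the other 3, and Hoxb6 (2.10) and Hoxa11 (2.10) had the same pattern at a lower level. The same library had the highest values of the liver and gut products Afp (287, 27.5, 9.54 and 30.3 in libraries 15, 20, 18 and 14) and Apoa1 (64.4, 17.9, 1.91 and 14.2), from a list of 12 genes of kidney, gut and trunk. Of these, 1 is also a jaw marker; the other 11 summed to 499, 183, 154 and 203, and 5 of the 11 were highest in library 15 and 6 in another library. The part of other tissue in these trunk Hox values was not tested. Mutant library 14 alone had Hoxa10 (1.01) and Hoxd13 (3.04), mutant library 18 alone Hoxb13 (0.950), and the remaining genes under a mean of 1 were Hoxa9 (0, 1.92, 0.978 and 0), Hoxc6 (0, 0, 1.90 and 1.01) and Hoxc8 (2.11, 0, 0 and 1.01). At these levels a difference between genotypes was not detectable, and no fold change is printed for a gene at 0 in a whole genotype.

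No Hox gene differed between genotypes past the threshold. Over all 17979 genes tested with limma, 2 passed an adjusted p of 0.05 (0.0111% of those tested) and 4.27% had an unadjusted p under 0.05, and 0 of the 20 Hox genes tested did either. The 19 others were under the filter on the mean and were not tested. Hoxd8 had the smallest p, with a log2 fold change (mutant minus wild type, on the log2(value + 0.5) scale) of 0.49 (SE 0.24, unadjusted p = 0.0804, adjusted p = 0.9999). For Hoxc13 it was 0.54 (SE 0.29), for Hoxd10 0.57 (SE 0.56), for Hoxd9 0.34 (SE 0.40), for Hoxd4 -0.01 (SE 0.34) and for Hoxd3 -0.44 (SE 0.72). The widest positive values belonged to genes near 0: Hoxc4 at 1.78 (SE 0.96), Hoxb9 at 1.70 (SE 1.24), Hoxa4 at 1.69 (SE 1.18), Hoxa5 at 1.46 (SE 0.84) and Hoxd1 at 1.41 (SE 1.63). All 20 adjusted p-values of limma were 0.9999.

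The direction of the 20 was uneven: 14 had a log2 fold change above 0 and 6 below, against 50.6% above 0 among all genes tested, and their median was 0.47 against 0.0025. In 5 (Hoxd8, Hoxc13, Hoxd10, Hoxc4 and Hoxa5) both mutant libraries lay above both wild-type libraries, where 13.4% of all genes did so, and in 0 below, where 14% did. The filter on the mean lets a low gene in through the group where it is high, so these counts describe the 20 and not all 39; of the 28 genes above 0 in any library, 18 had a log2 fold change above 0. Hoxb7 and Hoxb8, at 0 in both mutant libraries, are among the 6 below 0, and their fitted values depend on the pseudocount. The lean moved with single libraries. With wild-type library 15 or mutant library 18 left out, 17 of the 20 were above 0, with medians of 0.67 and 0.68. Without library 15, Hoxb7 and Hoxb8 were at 0 in every library left. They hold no information there, though the 20 and the median of 0.67 include them. With mutant library 14 left out, 10 of the 20 were above 0 and the median was 0.01, and with wild-type library 20 left out, 9 were and the median was -0.19. In the 5 genes without overlap the sign cannot change when 1 library is left out, so only the size is informative. For Hoxd8, Hoxc13 and Hoxd10 the log2 fold changes then ranged from 0.22 to 0.76, from 0.45 to 0.64 and from 0.52 to 0.62.

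**Figure D4:**
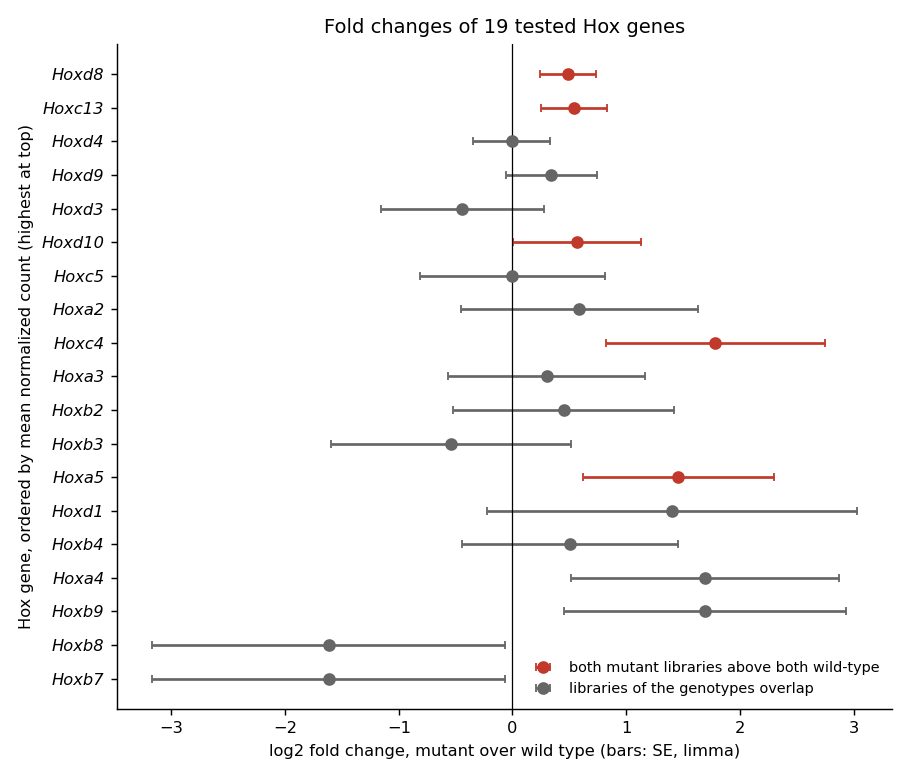
Log2 fold change (mutant minus wild type) of 19 of the 20 Hox genes tested, with bars for 1 standard error; marks show whether the genotypes overlap. Most lie above 0, none passed the threshold, and the errors are widest for genes near 0 counts; Hoxb7 and Hoxb8 are at 0 in both mutant libraries.

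Summed over all 39 genes, the Hox level was 411 and 342 normalized counts in wild type 15 and 20 (377 ± 49.3, SD, n = 2) and 406 and 594 in mutant 18 and 14 (500 ± 133). The genotypes overlapped, and the ratio of the means was 1.33. Per kb the sums were 155.2, 128, 156.7 and 227 in libraries 15, 20, 18 and 14, so the mutant libraries were above the wild-type ones by a narrow margin (ratio 1.35). Most of the difference came from library 14: for the normalized counts, without that library the log2 ratio was 0.11, against 0.41 with all 4. Library 14 also had the highest sum of 9 mast cell markers (10836, against 5047, 6042 and 7071 in libraries 15, 20 and 18). The same held for 12 neuron and Schwann cell markers (3780, against 2163 to 2282) and 10 salivary gland markers (4357, against 1497 to 1703). Of the mast cell markers, 7 were higher in both mutant libraries, 1 was lower and 1 overlapped. Mcpt4 (315, 495, 601 and 561) was highest in library 18. The shares over all genes tested were 13.4% higher and 14% lower. The part of these cells in the Hox sum of library 14 was not tested.

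Genes for proteins that work with Hox factors were expressed. The TALE cofactors (Pbx, Meis, Pknox and Tgif), which bind DNA together with Hox proteins and also have uses of their own in the jaw, had all 11 members above 0 in every library, at a median of 116 normalized counts per kb. Among the highest per kb were Pbx2 (1777, 1647, 1589 and 1852 normalized counts in libraries 15, 20, 18 and 14) and Tgif2 (939, 909, 734 and 921). None of the 11 passed the test or had an unadjusted p under 0.05 (limma), 6 were above 0 in log2 fold change and 5 below, and the median was 0.00.

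Genes for the machinery that keeps Hox clusters silent or active did not pass the test either. The Polycomb list, whose complexes put down repressive histone marks over silent Hox genes, had 31 members tested and 0 called, with 10 above 0 in log2 fold change, 21 below, and a median of -0.04. Its member Ezh2, the enzyme for that mark, had 1441, 1482, 1285 and 1342 normalized counts in libraries 15, 20, 18 and 14, and Suz12 2053, 2103, 1897 and 1882. The 13 genes of the trithorax and H3K27 demethylase list, which oppose Polycomb, had 0 called, 4 above 0 and 9 below. Median levels per kb were 183 for Polycomb and 224 for trithorax, every member of both lists was tested, and 0 had an unadjusted p under 0.05.

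Regulators that act upstream of Hox genes in the body axis had no call. Of 19 listed, 16 had a mean of at least 1 and 0 passed the threshold, with 3 at an unadjusted p under 0.05 (Cyp26c1, Cyp26a1 and Aldh1a2), where 4.27% of all genes were. The Cdx genes, which switch on trunk Hox genes, were at or near 0: Cdx4 in all libraries, Cdx2 at 1.05 in library 15 alone, and Cdx1 at 2.06 and 1.006 in the wild-type libraries alone. Retinoic acid, a signal that induces front Hox genes, is made by the enzyme of Aldh1a2 and broken down by those of the Cyp26 genes. Cyp26c1 had 78.7 and 105.5 normalized counts in wild type 15 and 20 against 0.95 and 0 in mutant 18 and 14 (log2 fold change -6.75, SE 0.70, limma adjusted p = 0.0684). Cyp26a1 had 190.6, 311.04, 126.5 and 90.3 (log2 fold change -1.18) and Aldh1a2 1134, 1058, 775 and 859 (-0.42), both lower in the 2 mutant libraries and neither past the threshold. Cyp26b1 (1059, 752, 931 and 1502) overlapped. The sums of the front Hox genes, given above, overlapped between genotypes.

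**Figure D5:**
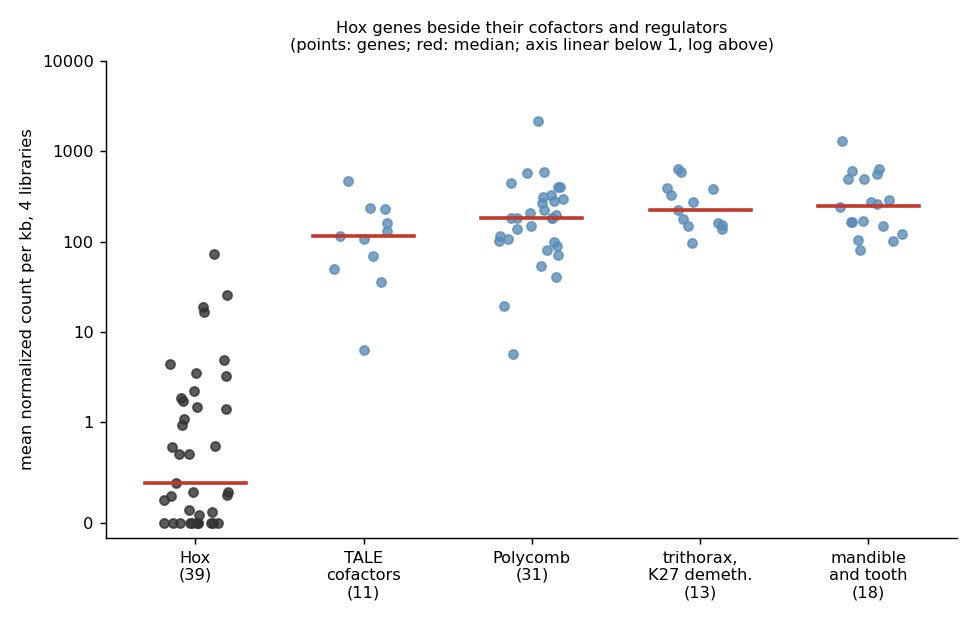
Mean level over the 4 libraries (normalized count per kb, axis linear below 1 and logarithmic above) of each gene of 5 lists, 1 point per gene, with the median as a red line. The Hox median is 0.40 per kb, and those of TALE cofactors, Polycomb, trithorax and mandible and tooth genes are 116, 183, 224 and 250.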

How the data were processed

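Polyadenylated RNA was sequenced from 4 libraries, 2 per genotype, made with a stranded kit per the labels. The authors deposited 1 signal value per gene and library; it is a normalized count, so reads were already scaled. DESeq2 and build mm10 are named, with no version, per the submitters' processing notes. An Illumina program for differential expression is named in the design text. For the aligner, counter, strand setting and annotation, the details were not given in the sources used here.

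Because raw counts were planned for and normalized counts were found, the stated fallback was used: values were put on the log2(value + 0.5) scale, the 17979 of 24972 rows whose mean reached 1 were kept, and genotype was fitted in R 4.3.3 by limma 3.58.1 with its variance trend, Benjamini-Hochberg adjustment over all genes and a threshold of 0.05. That scale understates changes of low genes. The script was tested on simulated data. Totals of normalized counts per library were 22134483 to 22578580. The read depth behind a value is unknown, so no counting interval is given.

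Coordinates and exon lengths came from GENCODE M21 (GRCm38, the assembly mm10 denotes), and 24445 rows matched by symbol (97.9%). Levels between genes were compared only per kb of summed exon length. Hox genes with a mean of at least 1 were named by library, as were, in lists of related genes, members with small p-values; 1 Hox gene and some other genes under that rule are not reported here. The members and lists were chosen with earlier results of these data known. No sample was dropped, and genotypes share no replicate number. Alternatives covered scaling (including a trimmed mean of M-values), filter, pseudocount, variance trend, sex of the embryo and each library left out.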

Additional observations from a re-analysis of the deposited data

How the results depend on the processing

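Library 15 is the only one with high Xist, so the fit with sex as covariate gave the same fold changes as leaving out library 15, and the 12 alternatives are 11 distinct ones. The count of Hox genes called was 0 in all of them, as it was for TALE cofactors and for Polycomb and trithorax genes; the smallest adjusted p of a Hox gene was 0.618. At an unadjusted p under 0.05 there were 0 Hox genes with all libraries, 3 with no variance trend, 1 with sex of the embryo as covariate, and 1, 2, 3 and 0 without libraries 15, 20, 18 and 14. Over all genes, 2 calls became 1 with no filter, 4 with a pseudocount of 1, 1 with no variance trend and 0 with sex as covariate, and 0 to 5 with a library left out. The 20 Hox genes with a mean of at least 1 became 11 when each library had to reach 1, 9 at a mean of 5, and 18 to 22 with a library left out. The log2 ratio of the Hox sums was 0.32 without Hoxd8 and 0.11 to 0.66 with a library left out.

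Of 210 recomputed log2 fold changes of 19 named Hox genes, 191 kept their sign and 19 did not. Among those 19 were 3 repeats under sex as covariate. The 9 genes that never changed sign include the 5 without overlap between genotypes (Hoxd8, Hoxc13, Hoxd10, Hoxc4 and Hoxa5). In these 5 the sign could not change when a library was left out. Hoxb7 and Hoxb8 are also among the 9, but lack values in the settings named below. Hoxc5 (-0.00) became 0.0068 with equal library totals, 0.0177 with a pseudocount of 1 and 0.26 with sex as covariate. Hoxd4 (-0.01) became 0.0036 with equal totals and 0.23 with sex as covariate, and Hoxb3 became 0.71 with sex as covariate. With a library left out, the ranges that crossed 0 were -0.86 to 2.03 for Hoxa2, -0.41 to 1.02 for Hoxa3, -0.62 to 1.52 for Hoxb2, -1.79 to 0.71 for Hoxb3, -0.13 to 1.15 for Hoxb4, -0.96 to 0.95 for Hoxc5, -0.79 to 3.60 for Hoxd1, -1.44 to 0.56 for Hoxd3, -0.25 to 0.23 for Hoxd4 and -0.0645 to 0.75 for Hoxd9. The cause was not tested. Fits without 1 library have 1 residual degree of freedom, and the lone library of a genotype is assumed to vary like the others. Values for Hoxb7 and Hoxb8 without library 15 or with sex as covariate, and for genes under a mean of 10 at that filter, could not be computed. No paired analysis was possible because the genotypes share no replicate numbers.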
